A study of Mus musculus with 4 samples.

Results

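Wnt pathway effectors and targets are 10 genes here, taken by symbol from the 4 deposited expression files: Ctnnb1 (beta-catenin), Apc and Axin2 of the destruction complex, the Tcf/Lef factors Tcf7, Lef1, Tcf7l1 and Tcf7l2, and the target genes Sp5, Cdx1 and T. All 10 were found among 23259 genes. Measured were 4 clones of mouse embryonic stem cells, 1 library each, by RNA sequencing of total RNA. The founder lines, called 4 and 6, were derived from blastocysts of Gcn5 flox/flox mice and had a normal male karyotype. Cells of both were transfected transiently with a vector in which the EF1α promoter drives an EGFP-Cre fusion and then sorted for GFP. The 2 KO clones (4C2 and 6C4) came from GFP-positive cells and lack exons 3 to 18 of both Gcn5 alleles, and the 2 WT clones (4-1 and 6-1) came from GFP-negative cells and keep the floxed alleles. Replicate 1 of WT and KO is line 4 and replicate 2 is line 6. Each line and genotype is thus 1 picked clone, grown on mitomycin-treated feeder fibroblasts in serum and LIF, and the labels name no Wnt ligand or Gsk3 inhibitor in the medium.

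In the canonical Wnt pathway, a destruction complex built on Axin and Apc marks beta-catenin for degradation, and Wnt ligands bound to Frizzled and Lrp5/6 receptors stop it. Beta-catenin then enters the nucleus and binds Tcf/Lef factors at DNA sites with the core CTTTG, where it activates genes such as Axin2, Sp5, Cdx1 and T. In mouse embryonic stem cells Tcf7l1 acts mainly as a repressor of pluripotency genes, and beta-catenin relieves that repression, while Tcf7 and Lef1 act as activators. Beta-catenin also links cadherins to the cytoskeleton at cell junctions.

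The sequence just before the start of 4 pathway targets is shown because target genes of the pathway carry Tcf/Lef motifs. Each is the 250 bases before the gene start on the plus strand, from RefSeq on GRCm38.p6, and capitals mark matches on either strand to 1 of 4 motifs, which are CTTTGAA and CTTTGAT and CTTTGTA and CTTTGTT. The windows are Sp5 at chr2:70474673-70474922, T at chr17:8434173-8434422, Axin2 at chr11:108920099-108920348 and the most upstream start of Lef1 at chr3:131110047-131110296.
Sp5: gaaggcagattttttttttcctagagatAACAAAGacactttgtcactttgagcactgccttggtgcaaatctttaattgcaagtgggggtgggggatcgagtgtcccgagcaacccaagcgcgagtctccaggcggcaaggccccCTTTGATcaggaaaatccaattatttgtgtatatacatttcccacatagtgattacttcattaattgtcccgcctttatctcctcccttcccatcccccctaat
T: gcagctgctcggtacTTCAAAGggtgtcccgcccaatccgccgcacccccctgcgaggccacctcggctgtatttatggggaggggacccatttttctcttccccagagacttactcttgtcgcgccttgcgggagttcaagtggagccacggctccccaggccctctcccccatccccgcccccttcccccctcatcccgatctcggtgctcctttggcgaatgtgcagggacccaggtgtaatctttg
Axin2: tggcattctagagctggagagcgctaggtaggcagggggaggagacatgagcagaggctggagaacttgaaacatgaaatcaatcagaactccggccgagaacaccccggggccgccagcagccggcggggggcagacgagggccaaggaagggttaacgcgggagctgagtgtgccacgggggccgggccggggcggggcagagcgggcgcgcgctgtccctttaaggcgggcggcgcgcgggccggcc
Lef1: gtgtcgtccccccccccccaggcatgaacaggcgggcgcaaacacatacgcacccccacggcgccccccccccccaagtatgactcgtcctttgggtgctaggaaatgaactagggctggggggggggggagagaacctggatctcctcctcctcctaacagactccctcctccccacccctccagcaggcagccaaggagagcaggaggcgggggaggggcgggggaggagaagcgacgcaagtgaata
The Sp5 window held 2 matches, AACAAAG starting 222 bases and CTTTGAT starting 104 bases before the gene start. The T window held 1, TTCAAAG, 235 bases before the start. The Axin2 window and this Lef1 window held 0. Of 32851 such windows in the RefSeq table, 14.8% held a match and 1.43% held at least 2. RefSeq windows were found for 8 of the 10 genes, 14 in all, and 4 of them held a match: those of Sp5 and T and 1 alternative start each of Lef1 and of Tcf7l2. No match overlapped another. These letters describe the windows and do not show that a factor bound there.

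The labels were checked with Kat2a, which encodes Gcn5: 38.7 and 34.4 FPKM were measured in WT replicates 1 and 2, and 11.5 FPKM in each KO replicate (log2 difference -1.58, SE 0.23, limma adjusted p = 0.0112). That call did not hold in all alternative fits described below. FPKM is the number of fragments per transcript length and sequencing depth, here normalized by the authors to spiked-in control RNA, and it allows levels of different genes to be compared per length. The stem cell markers Pou5f1, Sox2, Nanog, Zfp42, Utf1, Dppa5a, Esrrb and Tdgf1 summed to 3280 to 5180 FPKM per clone, and the 18 feeder fibroblast markers to 276 to 413 FPKM, so fibroblast transcripts were present in all 4 libraries. The 23259 genes of a library summed to 680168 and 757931 FPKM in the WT clones and to 520491 and 538257 FPKM in the KO clones, and most genes were listed lower in KO: the median tested gene differed by -0.44 in line 4 and by -0.19 in line 6 on the log2(FPKM + 1) scale. The spike-in RNA, ERCC mix 1 or mix 2, was added per amount of RNA, and the mix used for each clone is not given. Differences of single genes are also given relative to this median. As the spike-ins were added per amount of RNA, the values do not measure total RNA per cell. Whether less RNA of a gene in each cell or fewer cells of a type gave its lower bulk value cannot be told apart.

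Beta-catenin was by far the most abundant of the 10 transcripts, and the targets and Tcf7l2 the least. Ctnnb1 stood at 298.6 FPKM in WT replicate 1 and 267.4 FPKM in WT replicate 2, above 97.2% and 97.2% of tested genes in those clones. Tcf7, Lef1 and Apc followed at means over the 4 clones of 9.16, 8.86 and 7.03 FPKM, and their ranges over the clones overlapped. Tcf7l1 and Axin2 came next, at 2.85 and 2.13 FPKM, also with overlapping ranges. Cdx1, a homeobox gene of the posterior body axis, had a mean of 1.23 FPKM, and Tcf7l2, T and Sp5 had means of 0.779, 0.429 and 0.41 FPKM. The last 3 stayed under the mean of 1 FPKM required for testing, so 7 of the 10 genes entered the tests. All values lay far above the 0.00937 to 0.0107 FPKM at which genes without signal are listed.

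**Figure D1:**
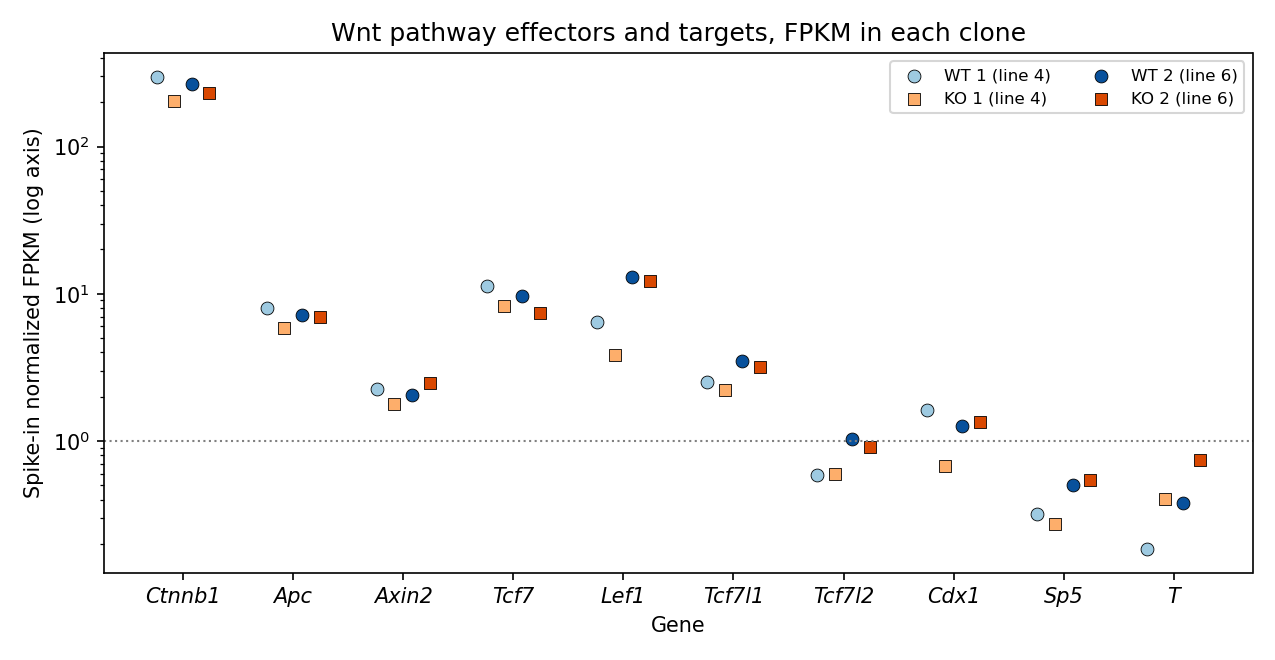
Each point is the spike-in normalized FPKM of 1 gene in 1 clone on a log axis; circles are WT, squares KO, pale colours line 4 and dark colours line 6, and the dotted line is 1 FPKM. Ctnnb1 lies between 205.3 and 298.6 FPKM, Lef1 separates by line, and T is the only one of the 10 whose KO clones both lie above both WT clones.

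Between KO and WT none of the 7 tested genes passed the test. In the limma test over all 11932 genes whose mean reached 1 FPKM, 0% of genes were called higher and 0.0168% lower in KO at an adjusted p under 0.05, and 0 of the 7. At an unadjusted p under 0.05, 0 of the 7 were found as well, against 5.54% of all tested genes (10 higher, 651 lower). With the founder line as a block in limma, 0.0335% of genes were called higher and 0.763% lower, 0.796% in all, and again 0 of the 7. With that block 1 of the 7, Ctnnb1, had an unadjusted p under 0.05, against 19.8% of all tested genes. On median-centred values with that block, 0.26% were called higher and 0.0168% lower, 0.277% in all, and 0 of the 7. The median log2 difference of the 7 was -0.30, against -0.32 for all tested genes. Lower in KO were 7 of the 7 in line 4, against 97.6% of all tested genes, and 5 of the 7 in line 6, against 87.7%. In both lines 5 were lower, against 86.3%, and 0 were higher, against 0.964%. These shares lie near the background.

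Ctnnb1, the transducer of the pathway, had 298.6 and 267.4 FPKM in the WT clones of lines 4 and 6 against 205.3 and 232.6 FPKM in the KO clones. Both KO values lay below both WT values. The same held for Apc and Tcf7, 3 of the 7, and for 59.8% of all tested genes, while the reverse held for 0 of the 7 and 0.268%. The mean was 283 ± 22.1 FPKM for WT against 219 ± 19.3 FPKM for KO (SD, n = 2), a log2 difference of -0.37 (SE 0.20, limma adjusted p = 0.445). Relative to the median gene it lay at -0.094 in line 4 and -0.015 in line 6, so beta-catenin mRNA was lower in KO by about as much as the typical gene.

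Of the destruction complex, Apc, the scaffold whose loss stabilizes beta-catenin, stood at 8.06 and 7.18 FPKM in WT and at 5.86 and 6.997 FPKM in KO. The KO values were below the WT values in both lines and without overlap, by a log2 difference of -0.40 in line 4 and -0.033 in line 6 (both lines -0.22, SE 0.26, limma adjusted p = 0.519). Axin2, a scaffold that the pathway itself induces as a feedback inhibitor, stood at 2.25 and 2.05 FPKM in WT and at 1.78 and 2.46 FPKM in KO. KO was thus lower than WT in line 4, at a ratio of 0.791, and higher in line 6, at a ratio of 1.20 (log2 difference over both lines -0.022, SE 0.26, limma adjusted p = 0.944). Relative to the median gene Axin2 lay at 0.22 in line 4 and 0.37 in line 6, Apc at 0.044 and 0.15 and Tcf7l1 at 0.33 and 0.090. These 3 of the 7 tested genes exceeded that median in line 4 and in line 6, and 27.1% of all tested genes did. Ctnnb1 alone of the 7 lay under it in each, again against 27.1%. On median-centred values with the block, the log2 difference of Axin2 was 0.28 (SE 0.11, limma adjusted p = 0.832). The feeder marker sum, like Axin2, was lower in KO of line 4 (413 and 276 FPKM) and higher in KO of line 6 (329 and 385 FPKM); of its 16 tested genes 15 lay above the median gene. Its part in the values of Axin2 was not tested.

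The Tcf/Lef factors carry beta-catenin to DNA. Tcf7 stood at 11.3 and 9.68 FPKM in WT and at 8.22 and 7.43 FPKM in KO, with both KO clones below both WT clones. Its KO to WT ratio was 0.728 in line 4 and 0.768 in line 6 (log2 difference -0.38, SE 0.25, limma adjusted p = 0.445). Tcf7l1, the repressor, stood at 2.496 and 3.49 FPKM in WT and at 2.23 and 3.20 FPKM in KO, with ratios of 0.892 and 0.918 (log2 difference -0.11, SE 0.27, limma adjusted p = 0.746). Tcf7l2 stood at 0.585 and 1.04 FPKM in WT and at 0.593 and 0.903 FPKM in KO, and was not tested. In these last 2 genes both line 6 clones lay above both line 4 clones, as in 16.3% of tested genes, and the genotypes overlapped.

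For Lef1, 6.47 FPKM (WT) and 3.82 FPKM (KO) were measured in line 4, a KO to WT ratio of 0.590, and 12.9 and 12.2 FPKM in line 6, a ratio of 0.948. The genotypes overlapped, with a mean of 9.69 ± 4.56 FPKM for WT against 8.03 ± 5.96 FPKM for KO (SD, n = 2; log2 difference -0.35, SE 0.38, limma adjusted p = 0.491). A test of whether the difference itself differed between the lines was not possible, since each line has 1 clone per genotype.

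Among the target genes, T was the 1 gene of the 10 listed higher in KO in both lines. T (brachyury) is the T-box factor of the primitive streak. It had 0.185 FPKM (WT) and 0.405 FPKM (KO) in line 4 and 0.380 and 0.747 FPKM in line 6, so both KO clones lay above both WT clones. The KO to WT ratio was 2.19 in line 4 and 1.97 in line 6, and the means were 0.282 ± 0.138 FPKM for WT against 0.576 ± 0.242 FPKM for KO (SD, n = 2). A mean from 0.2 to 1 FPKM, a range chosen after these values were seen, was found for 2912 genes. Among these, both KO clones lay above both WT clones in 2.47%, and KO was higher in both lines in 6.9%. KO was at least 1.9-fold higher in both lines in 0.446%, a cut just under the ratio of T in line 6. Without the filter on low values, T had a log2 difference of 0.29 (SE 0.15) and did not pass (limma adjusted p = 0.624). That fit called 0 genes, and Kat2a did not pass in it either (limma adjusted p = 0.606), so it cannot decide about T. Counts were not recovered from these values, so the counting error at this level is unknown.

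The sum of other primitive streak markers was not higher in KO in either line. The 9 markers listed for that cell type, T not among them, summed to 3.74 and 4.38 FPKM in WT and to 3.74 and 3.20 FPKM in KO. Eomes made up much of it: the other 8 summed to 1.74 and 2.65 FPKM in WT and to 2.16 and 1.87 FPKM in KO, higher in KO of line 4 and lower in KO of line 6. Fgf8 followed those signs, at 0.236 and 0.825 FPKM in WT and 0.749 and 0.303 FPKM in KO. Of the defining genes, Msgn1 was listed at the value of genes without signal in all 4 clones and Mesp1 at or close to it in 3 of them, with 0.0601 FPKM in KO replicate 1. Eomes, the 1 tested member, stood at 2.00 and 1.73 FPKM in WT and 1.58 and 1.34 FPKM in KO (limma adjusted p = 0.506). The part of streak-like cells in the values of T was not tested.

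The other targets gave opposite signs in the lines. Cdx1 had 1.63 FPKM (WT) and 0.674 FPKM (KO) in line 4, a ratio of 0.413, and at 1.25 and 1.34 FPKM in line 6, a ratio of 1.07 (log2 difference -0.30, SE 0.26, limma adjusted p = 0.450). KO replicate 1 was the low clone and the other 3 lay between 1.25 and 1.63 FPKM. A lower value in line 4 and a higher one in line 6 were found in 2 of the 7 tested genes, Cdx1 and Axin2, and in 11.3% of all tested genes. Sp5, a zinc-finger factor induced directly by Wnt signals and the gene with 2 motif matches, stood at 0.320 and 0.273 FPKM in WT and KO of line 4 and at 0.503 and 0.544 FPKM in line 6. Its values separated by line and, within each line, KO and WT differed by less than the lines did. Of genes with a mean from 0.2 to 1 FPKM, 33.2% had the signs of Sp5 and 10.4% those of Tcf7l2, higher in KO of line 4 and lower in KO of line 6.

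**Figure D2:**
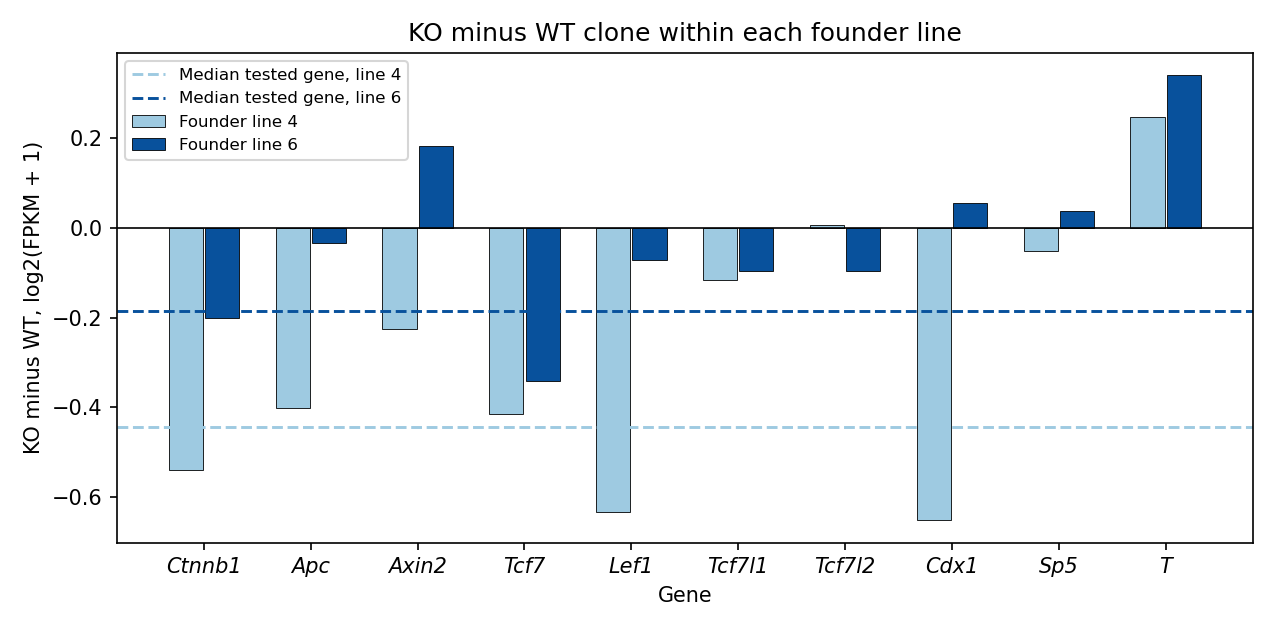
Bars give KO minus WT on the log2(FPKM + 1) scale within line 4 (pale) and line 6 (dark), 1 clone against 1 clone, and dashed lines the median tested gene of each line. T lies above 0 in both lines, Axin2, Cdx1 and Sp5 have opposite signs in the lines and the bars of Ctnnb1 lie close to the dashed lines.

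Between the founder lines, Lef1 differed and the other 6 tested genes did not pass. Lef1 stood at 6.47 and 3.82 FPKM in the line 4 clones and at 12.9 and 12.2 FPKM in the line 6 clones, so the lines did not overlap. The line 6 mean was 12.6 ± 0.475 FPKM against 5.14 ± 1.87 FPKM (SD, n = 2), a ratio of 2.45, with ratios of 2.00 among the WT clones and 3.21 among the KO clones. Its log2 difference was 1.18 (SE 0.33, limma adjusted p = 0.0255), higher in line 6 in 2 of 2 genotypes, and it was the 1 gene called of the 7, where 0.947% of all genes were called higher and 1.03% lower in line 6, 1.98% in all. At least 1.9-fold higher in line 6 in both genotypes, a cut just under the Lef1 ratio among the WT clones, were 1.24% of all genes. At least 2-fold higher were 1.03%, a cut that Lef1 missed narrowly, at an unrounded ratio of 1.997 among the WT clones. The call held with genotype as a covariate (limma adjusted p = 1.04e-05), where 3.67% of all genes were called higher and 5.46% lower, 9.13% in all, and again 1 of the 7. It also held on centred values (limma adjusted p = 0.00192), where 3602 of the 11932 tested genes were called, 1957 of them higher in line 6. It ended when either line 6 library was left out (WT replicate 2, then KO replicate 2), at log2 differences of 1.14 and 1.21 and adjusted p of 1.00 each, and without the filter on low values (0.380).

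The place of Lef1 within its family differed between the lines. Of the summed FPKM of the 4 Tcf/Lef genes, Lef1 made up 31.0% and 25.7% in WT and KO of line 4 and 47.6% and 51.5% in WT and KO of line 6. Tcf7 made up 54.2% and 55.3% in line 4 and 35.7% and 31.3% in line 6. Such shares are taken within a library and do not depend on the scaling between libraries by a constant. Tcf7 led the family in both line 4 clones and Lef1 in both line 6 clones. Tcf7l1 held 12.0% to 15.0% and Tcf7l2 2.81% to 3.99% over the 4 clones, without a like split. The ratio of Ctnnb1 to the summed family was 14.3 and 13.8 in line 4 and 9.86 and 9.78 in line 6, so WT and KO of a line lay close together in it.

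**Figure D3:**
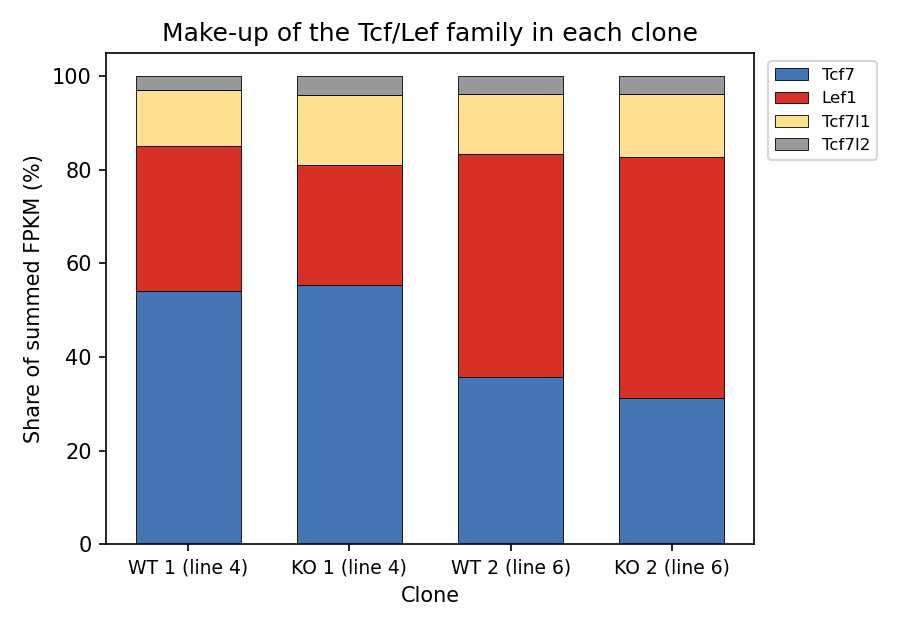
Each bar is 1 clone, and the colours give the share of the summed FPKM of Tcf7, Lef1, Tcf7l1 and Tcf7l2 in percent. Lef1 holds 25.7% to 31.0% in line 4 and 47.6% to 51.5% in line 6.

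Of the other genes, Tcf7l1 was also higher in both clones of line 6, at 3.49 and 3.20 FPKM against 2.496 and 2.23 FPKM, and did not pass (log2 difference 0.37, SE 0.28, limma adjusted p = 0.889; 0.0693 on centred values). In all, 2 of the 7 tested genes had both line 6 clones above both line 4 clones, against 16.3% of tested genes, and 0 the reverse, against 17.4%. The untested Tcf7l2 and Sp5 did so too, with line 6 to line 4 ratios of the means of 1.65 and 1.77, as did 29.7% of genes with a mean from 0.2 to 1 FPKM. Ctnnb1, Apc and Axin2 had log2 differences of 0.010 (SE 0.38), 0.037 (SE 0.33) and 0.11 (SE 0.26) between the lines, and their clones overlapped (limma adjusted p = 0.999 for each). Tcf7 lay at -0.17 (SE 0.34) and Cdx1 at 0.13 (SE 0.23), with the same adjusted p.

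**Figure D4:**
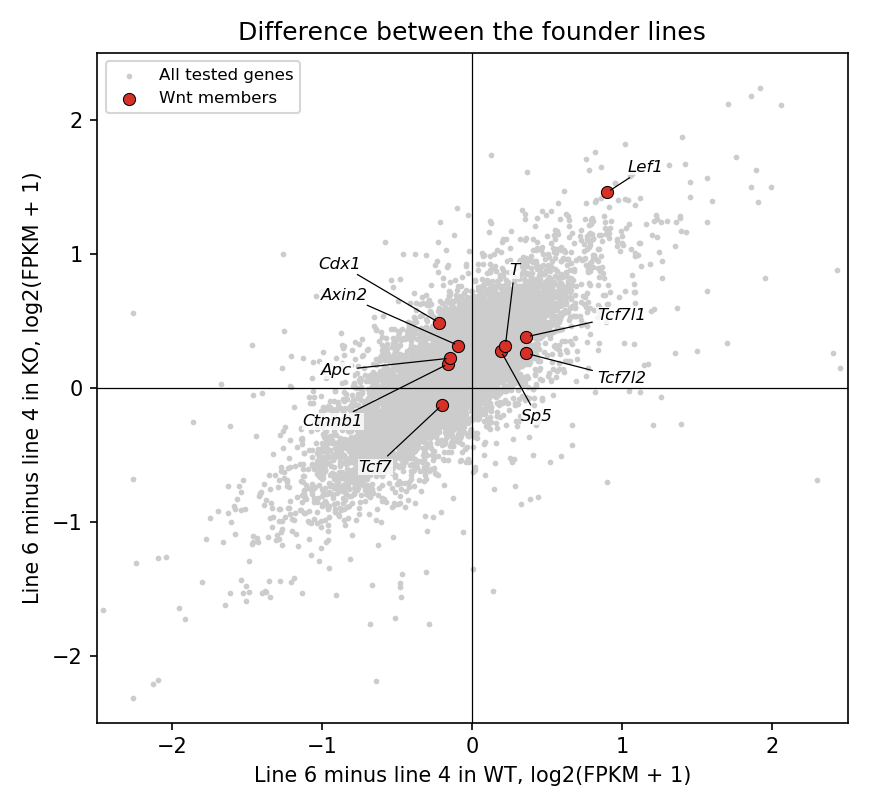
Each grey point is a tested gene, with the line 6 minus line 4 difference in WT on the x axis and in KO on the y axis, both on the log2(FPKM + 1) scale; red points are the 10 Wnt genes, and 15 genes lie outside the axes. Lef1 stands at 0.90 and 1.46, away from the other 9.

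Markers of other cell types were also compared between the lines. The 4 neural markers summed to 30.6 and 34.2 FPKM in WT and KO of line 4 and to 45.9 and 39.2 FPKM in line 6; Sox1 stood at 0.469 and 0.214 FPKM against 1.39 and 1.58 FPKM and Pax6 at 0.211 and 0.263 FPKM against 1.03 and 0.915 FPKM. The 5 endoderm markers summed to 2.63 and 1.25 FPKM against 4.92 and 3.54 FPKM. All 4 neural and all 5 endoderm markers had both line 6 clones above both line 4 clones. The same held for 16.3% of tested genes and 29.7% of genes with a mean from 0.2 to 1 FPKM. Only 3 of these 9 markers were tested and 0 passed. With genotype as a covariate Gata4, an endoderm marker, was called higher in line 6 (limma adjusted p = 0.0124), as were 3.67% of tested genes. The feeder fibroblast markers summed to 413 and 276 FPKM in line 4 and to 329 and 385 FPKM in line 6, overlapping between the lines. Of the 16 tested feeder markers 4 had both line 6 clones above both line 4 clones and 6 had both below, against 16.3% and 17.4% of tested genes. S100a4 passed, higher in line 6 (47.1 and 33.7 against 91.7 and 98.9 FPKM, limma adjusted p = 0.0289), as did 0.947% of tested genes. With genotype as a covariate 3 of the 16 were called higher and 4 lower, against 3.67% and 5.46%. The part of these cells in the Lef1 difference was not tested.

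The tested genes with the pattern closest to Lef1, by Euclidean distance between row-centred log2(FPKM + 1) values over the 4 clones, were D16Ertd472e, Fst and Raet1e, at distances of 0.103, 0.117 and 0.132. Fst, which encodes the activin antagonist follistatin, stood at 1.73 and 0.945 FPKM in line 4 and at 4.60 and 4.15 FPKM in line 6. Closest to Axin2 were Gm10389, Layn and Hist1h2an, at distances of 0.0268, 0.0368 and 0.0387.

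Upstream and around these genes, 122 further pathway genes were listed in 9 groups, of which 76 were tested. Between KO and WT 0 of the 76 were called, against 0.0168% of all tested genes. With the line as a block 0 were called, against 0.796%. With so few genes called in all, a count of 0 says little about a list, here and in the groups below. Their median log2 difference was -0.32, equal at this rounding to that of all tested genes. In the line 4 pair it was -0.43 and in the line 6 pair -0.18. Between the lines 2 of the 76 were called higher and 2 lower in line 6, against 0.947% and 1.03%. With genotype as a covariate 8 were called higher and 4 lower, against 3.67% and 5.46%.

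Most Wnt ligand genes were near the lower end of the range: 2 of 19 were tested, and the list summed to 8.35 to 10.6 FPKM per clone. Wnt7b, the ligand transcript with the highest level, was lower in line 6, at 3.01 and 2.15 FPKM in WT and KO against 6.08 and 6.62 FPKM in line 4 (log2 difference -1.05, SE 0.31, limma adjusted p = 0.0349). Wnt8a, a ligand of the early embryo, stood at 1.06 and 0.703 FPKM in line 4 and 1.81 and 2.06 FPKM in line 6 and did not pass (limma adjusted p = 0.196; 0.0139 with genotype as a covariate). Wnt9a and Wnt5a followed at 0.431 to 0.811 and 0.272 to 1.12 FPKM and were not tested. Porcn, the acyltransferase that makes Wnt proteins fit for secretion, stood at 16.5 and 19.7 FPKM in WT and 10.0 and 14.1 FPKM in KO (limma adjusted p = 0.445), and Wls, the carrier of Wnt proteins, at 3.50 to 4.92 FPKM.

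Receptor transcripts were present at higher levels, with 13 of 17 tested and 0 called in either comparison. Of all tested genes 0.0168% were called between KO and WT and 1.98% between the lines. The receptor for R-spondins, Lgr4, stood at 27.1 to 40.8 FPKM, Ryk at 23.0 to 29.8 FPKM, Fzd7 at 19.9 to 37.4 FPKM and the co-receptor Lrp5 at 11.3 to 18.2 FPKM. Of 7 tested extracellular regulators, Notum was called. Notum, a secreted enzyme that inactivates Wnt proteins and is itself a target of the pathway, stood at 2.64 and 2.44 FPKM in line 4 and at 7.34 and 6.58 FPKM in line 6 (log2 difference 1.17, SE 0.31, limma adjusted p = 0.0121). Its KO to WT ratios were 0.924 and 0.895, so its values separated by line and not by genotype. The inhibitors Sfrp1 and Sfrp2 stood at 9.66 to 19.3 and 8.14 to 12.7 FPKM, and Kremen1, a receptor for Dkk inhibitors, at 3.98 to 6.48 FPKM. Dkk3, a member of the Dickkopf family, was called lower in line 6 only with genotype as a covariate (3.66 and 2.08 against 1.21 and 1.47 FPKM; limma adjusted p = 0.201, and 0.0106 with the covariate).

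In the cytoplasm, 17 of 19 transducers and destruction complex genes were tested and 0 were called in either comparison. Of all tested genes 0.0168% were called between KO and WT and 1.98% between the lines. With genotype as a covariate Csnk1e, a casein kinase, was called lower in line 6, at 20.2 and 16.9985 FPKM against 41.9 and 25.0 FPKM in line 4 (limma adjusted p = 0.00503). Csnk1a1, the kinase that primes beta-catenin, stood at 261 and 169 FPKM in WT and 168 and 146 FPKM in KO. Tnks2, a tankyrase that destabilizes Axin, stood at 90.3 to 142 FPKM, Dvl2 at 28.3 to 43.2 FPKM and Csnk1d at 23.0 to 38.2 FPKM. Lower in KO in both lines were 16 of the 17, against the 86.3% of all tested genes. Of 20 nuclear cofactors 16 were tested and 0 called, against the same shares of all tested genes. Ctbp2, Aes, Smarca4 and Tle4, all co-repressors or remodelers, had the highest levels. Tle4 stood at 34.3 and 25.3 FPKM in line 4 and 61.1 and 51.3 FPKM in line 6 (limma adjusted p = 0.238, and 0.000321 with genotype as a covariate). The histone acetyltransferase Crebbp, at 5.46 and 3.59 FPKM against 7.68 and 7.60 FPKM, was also called only with the covariate (limma adjusted p = 0.516, and 0.0358 with it).

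At cell junctions, where beta-catenin binds cadherins, Ctnna1 (alpha-catenin) stood at 151 to 225 FPKM, Cdh1 (E-cadherin) at 64.1 to 85.5 FPKM, Ctnnd1 at 20.4 to 31.7 FPKM and Jup (plakoglobin) at 16.6 to 23.3 FPKM, and none of them passed in either comparison. Cdh2 (N-cadherin) was higher in line 6, at 2.67 and 3.62 FPKM against 1.13 and 1.20 FPKM (log2 difference 0.93, SE 0.26, limma adjusted p = 0.0239). Of 7 tested further target genes, 5 had both line 6 clones above both line 4 clones, against 16.3% of tested genes, and 0 passed. Ccnd1 (cyclin D1) stood at 30.4 and 21.4 FPKM in line 4 and at 51.5 and 46.2 FPKM in line 6 (log2 difference 0.91, SE 0.35, limma adjusted p = 0.228; 0.000347 with genotype as a covariate). Sall4, Id2 and Ccnd2 stood at 40.1 to 63.1, 7.68 to 16.7 and 2.85 to 6.90 FPKM, and with genotype as a covariate Id2 and Ccnd2 were called higher in line 6 (limma adjusted p = 0.0457 and 0.0465). Of the 7 untested targets, 2 had both line 6 clones above both line 4 clones (Cdx2 and Cdx4), 2 had both below (Rnf43 and Nkd1) and 3 overlapped. Of genes with a mean from 0.2 to 1 FPKM, 29.7% had both above, and the share with both below was not computed.

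The 7 naive pluripotency genes that Tcf7l1 is known to repress were all tested, and 0 were called between KO and WT, against 0.0168% of all tested genes. Nanog stood at 160 and 103 FPKM in WT and 108 and 83.4 FPKM in KO, Esrrb at 94.1 and 60.1 against 57.4 and 49.8 FPKM, Klf2 at 48.8 and 39.5 against 36.8 and 30.9 FPKM and Tfcp2l1 at 55.4 and 26.2 against 24.7 and 23.5 FPKM. Lower in KO in both lines were 6 of the 7, against 86.3% of all tested genes. With the lines averaged, 0 lay above the median gene, against 5966 of 11932 tested genes. Below it in each line were 3 of the 7, against 27.1%. Their median log2 difference was -0.43, and -0.12 relative to the median gene. Most of that came from line 4, at -0.26 relative to the median gene, against -0.046 in line 6. The 8 stem cell markers, which share Nanog and Esrrb with this list, had a median of -0.14 relative to that gene. Of these 8, 7 lay below it in both lines, against 27.1% of tested genes. The feeder markers had a median of 0.25 relative to it. The part of either in these values was not tested. Tcl1, a cofactor of Akt kinases, was lower in line 6, at 17.2 and 14.5 FPKM against 54.4 and 30.0 FPKM (log2 difference -1.31, SE 0.34, limma adjusted p = 0.0120). The line calls of Notum, Cdh2, Wnt7b and Tcl1 ended, as that of Lef1 did, when either line 6 library was left out (limma adjusted p = 1.00 each) and without the filter on low values.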

How the data were processed

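RNA from 4 clones of mouse embryonic stem cells, 2 WT and 2 KO, was measured by sequencing of ribosome-depleted total RNA spiked with ERCC controls, per the labels' protocols. The authors deposited 1 spike-in normalized FPKM value for each gene and library, per the file headers. The submitters' processing notes name the build mm9 and, with no role, HTSeq, affy, edgeR, TopHat2 2.0.9 and Bowtie 0.12.8. How the spike-ins scaled the values is not given there. A file had 23376 entries: 92 spike-ins, 25 names not shared by all files and 23259 genes. FPKM steps depend on gene length, which the files do not give, so reads were not recovered, depth is unknown and no counting interval is given. Whether the counting used strand is not given either, and Gencode lists a gene on the opposite strand of Ctnnb1, Apc, Axin2, Lef1, Tcf7 and Tcf7l1.

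A pseudocount of 1 FPKM was added before taking log2, so changes of low genes are understated. Genes whose mean reached 1 FPKM were tested with limma 3.58.1 in R 4.3.3 (eBayes with a trend, two-sided, Benjamini-Hochberg over all 11932 genes, threshold 0.05), KO against WT and line 6 against line 4. The test of KO against WT was also run on simulated data. Clone names in the labels tie replicate 1 to line 4 and replicate 2 to line 6, which pairs the samples, and same-numbered clones deviated from their group means together (r = 0.70 across genes). The prior df was 16.4 for KO against WT and infinite for the lines. It was also infinite for KO against WT with the line as a block. In these fits with an infinite prior df, all genes of a level got the same spread. P-values rest on the spread between 2 clones a group, shared over genes. With an infinite prior df they do not rest on the spread of the single gene. The 2 clones of a line are 1 WT and 1 KO, so without the covariate their spread includes any difference between genotypes. Alternatives were a pseudocount of 0.1 FPKM, no filter, centring on library medians, quantile normalization, leaving out each library, the line as a block (also with a robust spread) and genotype as a covariate. Named were the 10 genes, the 4 genes of highest mean and those past a test in each further list, and the 3 nearest patterns. Members and lists were chosen with earlier results of these data known. Promoter sequences are from RefSeq on GRCm38.p6, not the build of the files.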

Additional observations from a re-analysis of the deposited data

Results flagged for a closer look

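In 4 of the 10 genes the KO clone lay below WT in one line and above it in the other. Axin2 lay at -0.23 in line 4 and 0.18 in line 6 (KO minus WT, log2(FPKM + 1)), Cdx1 at -0.65 and 0.056 and Sp5 at -0.052 and 0.038, all lower in line 4 and higher in line 6. Tcf7l2 went the other way, at 0.0072 and -0.097. These differences between the lines were not tested, as each line has 1 clone per genotype. Lower in line 4 and higher in line 6 were 11.3% of tested genes and 33.2% of genes with a mean from 0.2 to 1 FPKM, and the reverse held for 10.4% of the latter.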

How the results depend on the processing

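Between KO and WT 2 genes were called, Kat2a among them. The count was 0 without the filter on low values, on centred values and with quantile normalization, and 0 to 133 without single libraries. It was 95 with the replicate block (4 higher, 91 lower), 33 with the block on centred values (31 higher, 2 lower) and 91 with the block and a robust spread. None of the 7 tested Wnt genes was called in any of these fits, where their lowest limma adjusted p was 0.221, so the block changed no call of theirs. The fits that called 0 genes did not call Kat2a either, so they cannot decide about the 7. Over all fits the log2 difference of Kat2a stayed between -1.67 and -1.25. On centred values, with or without the block, the differences of Apc, Axin2, Tcf7l1 and Cdx1 lay above 0, at 0.089, 0.28, 0.20 and 0.0081. With quantile normalization those of Ctnnb1, Apc, Axin2 and Tcf7l1 did, at 0.014, 0.081, 0.22 and 0.15. Without single libraries Axin2 ran from -0.18 to 0.14, Lef1 from -1.08 to 0.38 and Tcf7l1 from -0.30 to 0.085. Of 77 recomputed values of the 7 genes 18 changed sign.

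Between the lines 236 genes were called. The count was 0 without the filter, 3602 on centred values, 3865 with quantile normalization, 1089 with genotype as a covariate, 3531 with that covariate on centred values, and 7 to 1607 without single libraries. Lef1 stayed between 0.86 and 1.49 without single libraries. Ctnnb1 ran from -0.26 to 0.28, Apc from -0.16 to 0.24, Axin2 from -0.0014 to 0.22, Tcf7 from -0.37 to 0.042 and Cdx1 from -0.19 to 0.46. With 1 library left out, 1 clone stands for its group and is assumed to vary like the others. The cause of these shifts was not tested.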

Other observations

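Some pathway genes too low to be tested separated by line, in both directions, and others overlapped. Those named here were picked after their values were seen. Of 17 untested Wnt ligands, 6 had both line 6 clones above both line 4 clones, 2 had both below and 9 overlapped. The counts were 3, 2 and 6 for 11 untested extracellular regulators, and 2, 2 and 3 for 7 untested further targets. Cdx2, a homeobox gene of trophectoderm and posterior body, stood at 0.0961 and 0.146 FPKM in WT and KO of line 4 and at 0.382 and 0.631 FPKM in line 6. Dkk1, a secreted inhibitor of the pathway, stood at 0.327 and 0.206 FPKM in line 4 and at 1.23 and 0.609 FPKM in line 6. Cdx4, of the same family as Cdx2, stood at 0.101 and 0.0257 FPKM in line 4 and at 0.389 and 0.330 FPKM in line 6. In each of the 3 genes both line 6 clones lay above both line 4 clones, as in 29.7% of genes with a mean from 0.2 to 1 FPKM. The reverse held for Rnf43 and Nkd1, feedback inhibitors and targets of the pathway, and its share among genes of that range was not computed. Rnf43 stood at 0.336 and 0.338 FPKM in line 4 and at 0.0942 and 0.119 FPKM in line 6, and Nkd1 at 0.821 and 0.534 FPKM against 0.426 and 0.257 FPKM.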
